A study of Homo sapiens with 6 samples.

Results

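The 47 genes described here encode the proteins of homologous recombination, the Fanconi anaemia pathway, DNA end joining and the DNA damage checkpoint. They were taken by gene symbol from a fixed list, and each matched 1 of the 60612 rows of the gene table. RNA was sequenced from U87, an established human glioblastoma cell line, in 3 libraries of cells carrying a scramble shRNA (NC) and 3 libraries of cells carrying shRNA against PRMT6 (shPRMT6). Both shRNAs were delivered by lentivirus, and per the methods infected cells were then selected with puromycin. PRMT6 is a protein arginine methyltransferase that modifies histone H3 and other substrates. The shPRMT6 libraries are numbered in the labels, which do not say whether the numbers mark different shRNAs, so they were read as replicates. The methods call them independent replicates.

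Homologous recombination repairs a double-strand break by cutting the ends back to single-stranded DNA and copying the sister chromatid, and therefore works mainly after DNA replication. The Fanconi proteins mark and unhook crosslinks between the strands when a replication fork meets them, and hand the resulting break to recombination. End joining ligates ends directly without a template. The kinases ATM and ATR detect the damage and halt the cell cycle through CHEK1, CHEK2 and WEE1. Many of these genes are transcribed mostly in cells that are replicating their DNA, and several are under the control of E2F transcription factors.

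The libraries held from 56388161 to 75887696 counts, and all 47 genes passed the filter on low counts, with between 237 and 34400 counts in a library. NC replicate 2 was the deepest library and had the highest CPM (library-scaled counts, with TMM factors) of the NC libraries for 35 of the 47 genes, so counts are also given without it. The glioma and mesenchymal markers VIM (1159 to 1357 FPKM) and CD44 (38.3 to 54.3 FPKM) were abundant in every library, whereas the astrocyte marker GFAP did not exceed 0.0648 FPKM and S100B had no counts. SOX2 did not exceed 0.136 FPKM, NES ranged from 5.74 to 6.94 FPKM and OLIG2 from 0.546 to 0.829 FPKM. Of the markers of other cells, CD68 was at 56.4 to 124 FPKM, while PECAM1 (at most 0.569), EPCAM (at most 0.34), MBP (at most 0.12), CDH1 (at most 0.103), RBFOX3 (at most 0.0399), PTPRC (at most 0.00537) and CD3E (no counts) were low. Of the 12 markers tested, 1 passed the test, CDH1, which was lower in shPRMT6 (log2 fold change -2.18, adjusted p = 0.0428). PRMT6 itself was at 9.34, 7.97 and 7.19 CPM in NC and 3.57, 4.58 and 5.24 CPM in shPRMT6, and the groups did not overlap (log2 fold change -0.87, SE 0.19, adjusted p = 0.0225). Leaving out NC replicate 1 (-0.77) or shPRMT6 replicate 1 (-0.73) or 2 (-0.89) ended its call.

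In PRMT6-knockdown cells 20 of the 47 repair genes fell and 0 rose at an adjusted p under 0.05 (edgeR quasi-likelihood test with Benjamini-Hochberg adjustment over the 18106 genes tested). Over all genes tested, 9.06% fell and 9.51% rose. The 20 genes were reduced to between 44.2% and 85.4% of their NC level, and in each of them every shPRMT6 library lay below every NC library. The groups were separated in this way for 27 of the 47 genes, against 19.9% of all genes tested, and only RAD50 was separated upward, against 20.3% of all genes tested. The median log2 fold change was -0.30 over the 47 genes and -0.01 over all genes tested. At an unadjusted p under 0.05, 3 repair genes were higher (RAD50, ATR and TP53BP1), against 16.3% of all genes tested, and DESeq2 called the same 3 higher, against 16.2% of all genes tested. Since the RNA came from whole cultures, fewer cells holding a transcript and less of it per cell cannot be told apart.

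**Figure D1:**
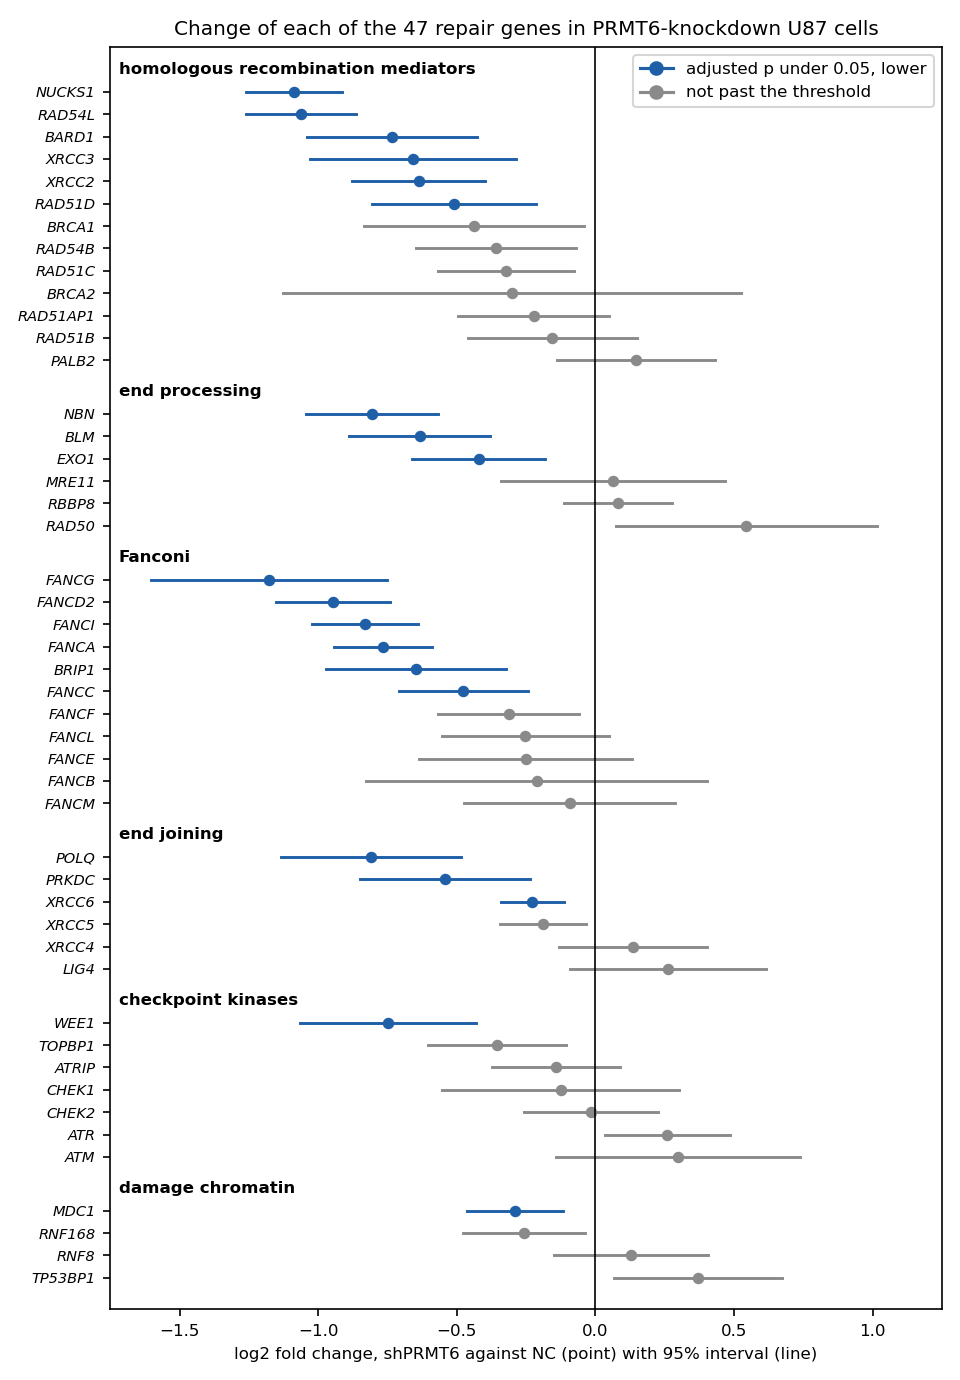
Each point is the log2 fold change of 1 repair gene in the 3 shPRMT6 libraries against the 3 NC libraries, with its 95% interval as a line, grouped by role and ordered within each role. The 20 genes in blue passed an adjusted p of 0.05 downward, with values from -1.18 to -0.23, and the 27 genes in grey did not pass.

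Leaving out 1 library at a time left between 12 and 19 of the 47 genes lower, while 4.52% to 8.10% of all genes tested were lower in these fits. Without shPRMT6 replicate 1 the count was 12, and leaving out either of the other shPRMT6 libraries gave 13. Without NC replicate 2, 16 genes were lower and 4 were higher (RAD50, LIG4, ATM and TP53BP1). The share of all genes tested that were higher in that fit was 8.84%, close to that of the repair genes, so the 4 are no result about them. The 12 genes called in every fit that tested them were NUCKS1, RAD54L, BARD1, XRCC2, NBN, BLM, FANCA, FANCD2, FANCG, FANCI, POLQ and WEE1. The calls of RAD51D, XRCC3, EXO1, FANCC, BRIP1, XRCC6, PRKDC and MDC1 were each lost in 3 to 5 of the 6 fits that left out a library. The fold changes of all 20 genes stayed negative in every fit that tested them. At an absolute log2 fold change above 1 with an unadjusted p under 0.05, 3 repair genes were lower (NUCKS1, RAD54L and FANCG), against 2.63% of all genes tested.

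**Figure D2:**
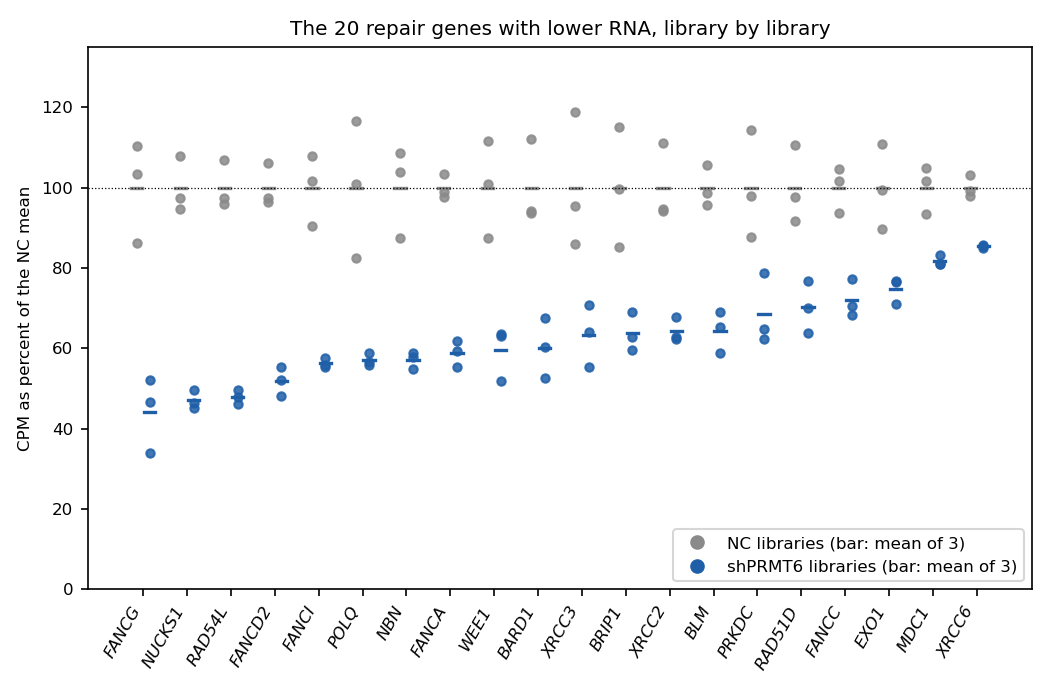
CPM of the 20 repair genes that fell, as percent of the mean of the NC libraries, with 1 point for each of the 3 NC (grey) and 3 shPRMT6 (blue) libraries and a bar at each mean of 3. The shPRMT6 means run from 44.2% for FANCG to 85.4% for XRCC6, and no blue point reaches a grey point of the same gene.

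E2F factors bind short words near the start of their target genes. The RefSeq promoter table (GRCh38.p14, 250 bases before to 50 after each start) held windows for 41 of the 47 genes. The words TTTGGCGC, TTTCCCGC, TTTGCCGC and TTTCGCGC were searched on both strands. At least 1 of them was present in 7 of the 16 genes with a window that fell (43.75%) and in 1 of the other 25 (TOPBP1), compared with 6.45% of the 11796 genes tested that had a window and 3.99% of all 27305 genes in the table. The shorter words TTTGAA and TTCGAA, found at the cell cycle genes homology region of many G2/M genes, were present in 5 of the 16 genes that fell and 1 of the other 25. They were present in 15.9% of the genes tested that had a window and 19.5% of all 27305 genes. Over the 41 repair genes with a window the share was 14.6% for the shorter words and 19.5% for the E2F words. The matches describe letters in these windows only, and no test was made on them. They are printed because these shares rest on them, each as 30 bases of the gene's own strand with the word or its reverse complement in capitals.
NUCKS1 (chr1:205750192-205750221, - strand): tgcacggcggcTTTGGCGCattttcggctg
EXO1 (chr1:241848197-241848226, + strand): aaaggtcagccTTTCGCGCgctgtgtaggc
FANCD2 (chr3:10026424-10026453, + strand): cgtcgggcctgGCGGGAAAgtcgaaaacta
XRCC2 (chr7:152676102-152676131, - strand): tggcgttggtgGCGGGAAAgttgagtctct
FANCC (chr9:95317863-95317892, - strand): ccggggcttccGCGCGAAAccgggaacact
FANCA (chr16:89816801-89816830, - strand): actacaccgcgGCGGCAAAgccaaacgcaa
XRCC6 (chr22:41621315-41621344, + strand): tgtccaagttggtcgcttccctGCGCCAAA
TOPBP1 (chr3:133661930-133661959, - strand): ccgcgcggttgGCGCGAAAgtcggttcccg

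The words of EXO1, XRCC2 and XRCC6 began 5, 22 and 43 bases after the annotated start, and those of the other genes began before it. FANCC carried 2 words, at 172 and 46 bases before the start. The upstream stretches of FANCA and FANCC, both free of annotated exons, are given whole because each carries a word 172 bases before the start. Both genes encode subunits of the Fanconi core complex. The 2 words differ, and the shared distance was not tested. Another FANCC window, at a different start, held none of the words. The FANCC stretch lies inside the FANCC gene as annotated in GENCODE 29 (chr9:95099054-95426796), so it is upstream only of the start used here.
FANCA (chr16:89816658-89816897, - strand): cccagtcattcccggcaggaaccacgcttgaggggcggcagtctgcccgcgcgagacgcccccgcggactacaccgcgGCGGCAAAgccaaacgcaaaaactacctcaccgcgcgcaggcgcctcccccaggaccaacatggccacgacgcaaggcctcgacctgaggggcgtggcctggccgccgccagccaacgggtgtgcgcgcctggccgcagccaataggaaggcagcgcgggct
FANCC (chr9:95317710-95317959, - strand): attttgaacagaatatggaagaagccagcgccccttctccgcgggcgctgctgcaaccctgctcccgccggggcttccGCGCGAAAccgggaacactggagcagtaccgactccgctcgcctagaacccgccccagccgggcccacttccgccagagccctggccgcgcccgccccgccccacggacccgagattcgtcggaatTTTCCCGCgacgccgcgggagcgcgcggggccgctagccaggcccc

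Among the 13 recombination mediators, 6 fell and 0 rose, against 9.06% and 9.51% of all genes tested. A negative fold change was found in 12 of 13, and in 9250 of the 18106 genes tested. NUCKS1, a chromatin protein related to RAD51AP1, was the most abundant of them per length (54.5 ± 3.96 FPKM in NC, SD, n = 3) and was at 395, 451 and 407 CPM in NC and 188, 194 and 207 CPM in shPRMT6. It fell to 47.05% of its NC level (log2 fold change -1.09, SE 0.072, adjusted p = 0.00058). RAD54L, a motor protein of the strand invasion step, was at 36.02, 36.6 and 40.1 CPM in NC and 17.97, 18.6 and 17.4 CPM in shPRMT6. It fell to 47.9% of NC (log2 fold change -1.06, SE 0.083, adjusted p = 0.00096) and its groups did not overlap. Its exons lie opposite LRRC41 over 25.1% of their bases, and LRRC41 did not pass (log2 fold change 0.13). RAD51AP1, which stimulates the pairing step, was at 25.2 ± 3.09 CPM in NC and 21.6 ± 1.31 CPM in shPRMT6 (SD, n = 3), and its groups overlapped (log2 fold change -0.22, 95% interval -0.50 to 0.05, adjusted p = 0.230). RAD54B, the relative of RAD54L, was at 21.5 ± 2.74 CPM in NC and 16.8 ± 1.04 CPM in shPRMT6 (SD, n = 3) and did not pass the test (log2 fold change -0.36, 95% interval -0.65 to -0.072, adjusted p = 0.0875). It was called lower by DESeq2, and by edgeR without NC replicate 1 (adjusted p = 0.0405). The locus FSBP covers 59.1% of the RAD54B exon bases on the same strand, so the counts of RAD54B and ratios that use them are uncertain. In each library the ratio of NUCKS1 to RAD51AP1 CPM was 13.9, 20.4 and 16.3 in NC and 8.89, 9.48 and 9.01 in shPRMT6, and that of RAD54L to RAD54B was 1.95, 1.53 and 1.82 in NC and 1.003, 1.17 and 1.06 in shPRMT6. Neither ratio overlapped between the groups. These pairs were chosen after their values were seen, so no test was made.

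BARD1, the obligate partner of BRCA1 in a ubiquitin ligase, was at 26.9, 32.1 and 26.98 CPM in NC and 15.1, 17.3 and 19.4 CPM in shPRMT6. It fell to 60.1% of NC (log2 fold change -0.73, SE 0.13, adjusted p = 0.0109). BRCA1 was at 32.6, 42.5 and 41.6 CPM in NC and 32.9, 22.9 and 30.4 CPM in shPRMT6. Its groups overlapped, since shPRMT6 replicate 1 reached NC replicate 1, and it did not pass the test (log2 fold change -0.44, 95% interval -0.84 to -0.04, adjusted p = 0.122), although DESeq2 called it lower. The ratio of BARD1 to BRCA1 CPM overlapped between the groups, at 0.823, 0.755 and 0.649 in NC and 0.458, 0.753 and 0.637 in shPRMT6. BRCA2, a tumour suppressor that binds BRCA1 through PALB2, had the lowest level per length of the 47 genes (0.435 ± 0.199 FPKM in NC) and was at 6.31, 9.85 and 3.80 CPM in NC and 5.11, 4.58 and 6.53 CPM in shPRMT6. The wide interval of BRCA2 (log2 fold change -0.30, 95% interval -1.12 to 0.52, adjusted p = 0.605) came with NC libraries that differed by more than the groups, and without NC replicate 2 its log2 fold change was 0.10. PALB2, that bridge, was at 17.2 ± 0.511 CPM in NC and 19.03 ± 2.64 CPM in shPRMT6 (SD, n = 3, log2 fold change 0.15, 95% interval -0.14 to 0.43, adjusted p = 0.455).

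XRCC2, XRCC3, RAD51B, RAD51C and RAD51D are related proteins that assist recombination, and 3 of these 5 fell, against 9.06% of all genes tested. XRCC2 was at 26.1, 30.7 and 26.02 CPM in NC and 17.2, 18.7 and 17.3 CPM in shPRMT6 (log2 fold change -0.64, SE 0.10, adjusted p = 0.00777), with no overlap of the groups. XRCC3 was at 21.6, 19.4 and 26.9 CPM in NC and 14.5, 16.04 and 12.5 CPM in shPRMT6 (log2 fold change -0.66, SE 0.15, adjusted p = 0.0309). In the annotation 76.7% of its exon bases lie opposite KLC1, which was at 198 ± 8.16 CPM in NC and 227 ± 11.6 CPM in shPRMT6 (SD, n = 3, log2 fold change 0.20, SE 0.063, adjusted p = 0.0729), and whether strand was used in counting is not stated, so XRCC3 is uncertain. RAD51D was at 12.1, 12.9 and 14.6 CPM in NC and 9.24, 10.1 and 8.40 CPM in shPRMT6 (log2 fold change -0.51, SE 0.12, adjusted p = 0.0338). For XRCC3 and RAD51D, too, the groups did not overlap. RAD51C was at 20.5 ± 1.97 CPM in NC and 16.4 ± 0.655 CPM in shPRMT6 (SD, n = 3) and its groups did not overlap, but it did not pass (log2 fold change -0.32, 95% interval -0.57 to -0.079, adjusted p = 0.0748). With DESeq2, RAD51C was called lower. RAD51B was at 8.47 ± 0.728 CPM in NC and 7.61 ± 0.687 CPM in shPRMT6 (SD, n = 3, log2 fold change -0.16, 95% interval -0.46 to 0.15, adjusted p = 0.456).

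Of the 6 genes that process the broken ends, 3 fell and 0 rose, against 9.06% and 9.51% of all genes tested. The other 3 had positive fold changes, as did 8856 of the 18106 genes tested. NBN, the subunit that links the MRE11-RAD50-NBN complex to ATM, was at 45.9, 57.04 and 54.6 CPM in NC and 30.4, 30.9 and 28.8 CPM in shPRMT6. It fell to 57.2% of NC (log2 fold change -0.81, SE 0.10, adjusted p = 0.00351). RAD50, the structural subunit, was at 41.9, 59.8 and 34.8 CPM in NC and 63.7, 62.5 and 72.8 CPM in shPRMT6. All its shPRMT6 libraries lay above all NC libraries (log2 fold change 0.54, 95% interval 0.074 to 1.01, adjusted p = 0.107), NC replicate 2 standing closest to them, and it passed the threshold without that library. A locus on the same strand, AC116366.3, covers 79.7% of the RAD50 exon bases, so its counts are uncertain. MRE11, the nuclease subunit, was at 16.4 ± 2.98 CPM in NC and 17.1 ± 2.48 CPM in shPRMT6 (SD, n = 3, log2 fold change 0.06, 95% interval -0.34 to 0.47, adjusted p = 0.838). The ratio of NBN to RAD50 CPM was 1.10, 0.955 and 1.57 in NC and 0.477, 0.495 and 0.396 in shPRMT6, and that of NBN to MRE11 was 2.86, 2.93 and 4.03 in NC and 1.83, 2.08 and 1.45 in shPRMT6. Both ratios were separated between the groups, and both pairs were chosen after their values were seen.

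BLM, a helicase that unwinds ends and dissolves recombination intermediates, was at 13.7, 15.1 and 14.1 CPM in NC and 9.33, 8.38 and 9.85 CPM in shPRMT6 (log2 fold change -0.63, SE 0.11, adjusted p = 0.00976). EXO1, an exonuclease that extends the single-stranded tail, was at 37.2, 33.3 and 30.1 CPM in NC and 23.8, 25.7 and 25.6 CPM in shPRMT6 (log2 fold change -0.42, SE 0.10, adjusted p = 0.0323). Both had no overlap of the groups. RBBP8, which starts the trimming together with MRE11, was at 71.8 ± 6.57 CPM in NC and 76 ± 1.79 CPM in shPRMT6 (SD, n = 3, log2 fold change 0.08, 95% interval -0.11 to 0.28, adjusted p = 0.547).

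**Figure D3:**
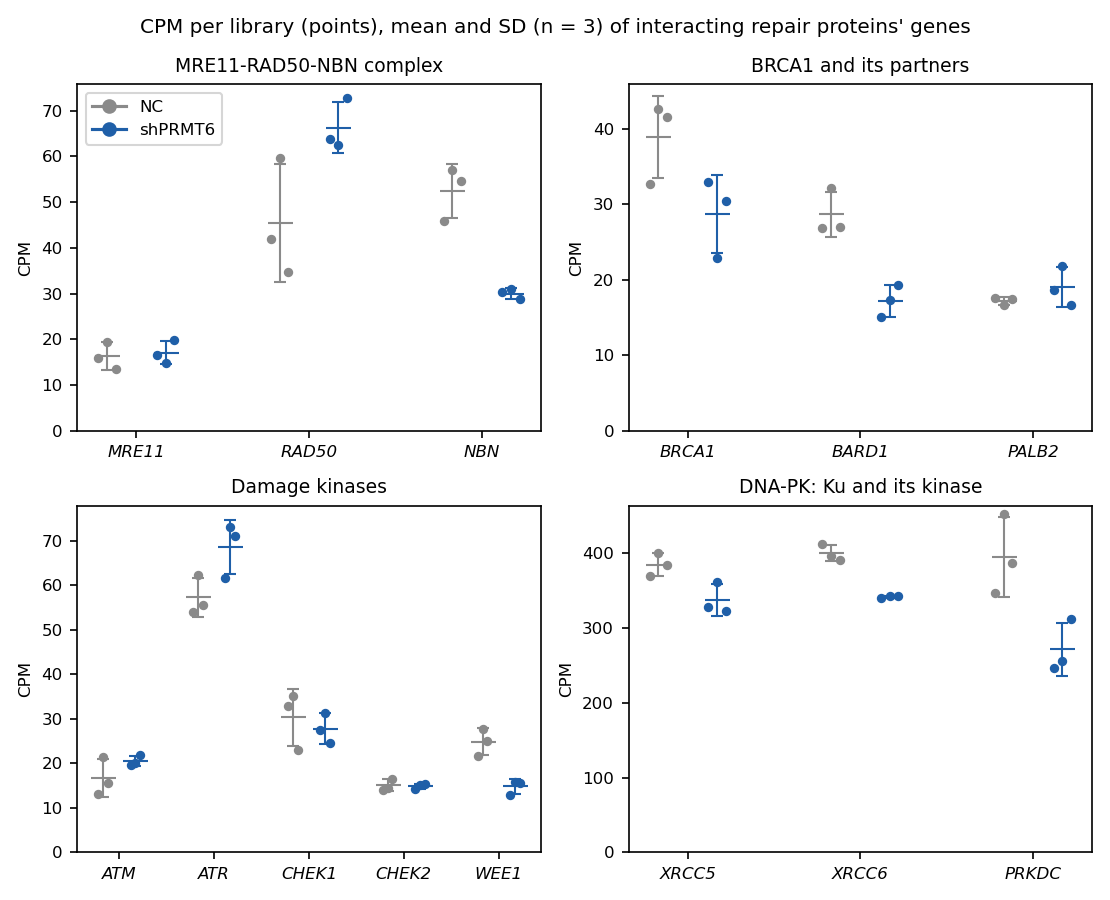
CPM per library for genes of proteins that work together, with NC in grey and shPRMT6 in blue, points for the 3 libraries of each group, and mean and SD as bars. NBN fell while the 3 shPRMT6 libraries of RAD50 lay above NC. However, RAD50 did not pass the test, and its counts are uncertain because another locus covers 79.7% of its exon bases. BARD1 fell and BRCA1 did not pass, but the ratio of BARD1 to BRCA1 overlapped between the groups. Of the damage kinases in their panel WEE1 alone passed the test.

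Of the 11 Fanconi genes, 6 fell and 0 rose, against 9.06% and 9.51% of all genes tested. All 11 fold changes were negative, as were those of 9250 of the 18106 genes tested. FANCG, a subunit of the core complex, was at 46.96, 39.2 and 50.2 CPM in NC and 23.7, 21.2 and 15.4 CPM in shPRMT6. It fell to 44.2% of NC (log2 fold change -1.18, SE 0.18, adjusted p = 0.00676). FANCA, its partner in the core complex, was at 48.6, 50.8 and 48.03 CPM in NC and 29.1, 30.3 and 27.2 CPM in shPRMT6 and fell to 58.8% (log2 fold change -0.77, SE 0.074, adjusted p = 0.00170). The exons of FANCA lie opposite ZNF276 over 23.6% of their bases, and ZNF276 did not pass (log2 fold change -0.12). FANCC was at 16.3, 18.2 and 17.7 CPM in NC and 12.2, 13.4 and 11.9 CPM in shPRMT6 (log2 fold change -0.48, SE 0.098, adjusted p = 0.0194). FANCD2 and FANCI form the clamp that is ubiquitinated on damaged DNA. FANCD2 was at 47, 51.8 and 47.4 CPM in NC and 25.4, 23.4 and 27 CPM in shPRMT6 (log2 fold change -0.95, SE 0.086, adjusted p = 0.00149). FANCI was at 89.5, 107 and 100.5 CPM in NC and 55.3, 56.95 and 54.8 CPM in shPRMT6 (log2 fold change -0.83, SE 0.080, adjusted p = 0.00168). For both, every shPRMT6 library lay below every NC library. Their ratio in CPM was 0.525, 0.484 and 0.472 in NC and 0.460, 0.411 and 0.493 in shPRMT6, which overlapped. BRIP1, a helicase that binds BRCA1, was at 16.04, 21.7 and 18.8 CPM in NC and 11.2, 11.9 and 13.01 CPM in shPRMT6 (log2 fold change -0.65, SE 0.14, adjusted p = 0.0208).

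The 5 Fanconi genes that did not pass were FANCB, FANCE, FANCF, FANCL and FANCM. FANCL, the ubiquitin ligase, was at 23.2 ± 0.147 CPM in NC and 19.4 ± 3.08 CPM in shPRMT6 (SD, n = 3, log2 fold change -0.25, 95% interval -0.55 to 0.048, adjusted p = 0.218), and FANCF was at 13.7 ± 1.13 CPM in NC and 11.04 ± 0.606 CPM in shPRMT6 (SD, n = 3, log2 fold change -0.31, 95% interval -0.57 to -0.059, adjusted p = 0.0907), both with groups that did not overlap. With DESeq2, FANCF was called lower. FANCE had a log2 fold change of -0.25, FANCB of -0.21 and FANCM of -0.09. FANCB and FANCM turned to 0.06 and 0.03 without NC replicate 2.

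Of the 6 end joining genes 3 fell and 0 rose, against 9.06% and 9.51% of all genes tested. POLQ, the polymerase of the route that uses short matches between the ends, was at 23.7, 33.5 and 28.98 CPM in NC and 16.9, 16.2 and 16.03 CPM in shPRMT6. It fell to 57.1% of NC (log2 fold change -0.81, SE 0.14, adjusted p = 0.00968). XRCC6 and XRCC5 encode the Ku ring that binds broken ends, and were the most abundant of the 47 genes per length, at 104 ± 1.82 and 59.3 ± 2.68 FPKM in NC. XRCC6 was at 412, 397 and 391 CPM in NC and 339.6, 342 and 343 CPM in shPRMT6 (log2 fold change -0.23, SE 0.047, adjusted p = 0.0204). XRCC5 was at 369.8, 400.5 and 384 CPM in NC and 328, 362 and 323 CPM in shPRMT6 and did not pass (log2 fold change -0.19, 95% interval -0.34 to -0.034, adjusted p = 0.0944), with groups that did not overlap. It was called lower by DESeq2. The ratio of XRCC5 to XRCC6 CPM overlapped between the groups, at 0.897 to 1.01 in NC and 0.943 to 1.06 in shPRMT6. PRKDC, the kinase that Ku recruits, was at 346, 452 and 387 CPM in NC and 246, 256 and 312 CPM in shPRMT6 (log2 fold change -0.54, SE 0.13, adjusted p = 0.0313). The ratio of PRKDC to XRCC6 CPM also overlapped, at 0.840, 1.14 and 0.990 in NC and 0.725, 0.749 and 0.909 in shPRMT6. XRCC4 and LIG4, which seal the ends, had log2 fold changes of 0.14 and 0.26 and did not pass.

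Among the 7 genes of the checkpoint kinases and their activators, only WEE1 passed the edgeR test as reported, while DESeq2 also called TOPBP1 lower and ATR higher. TOPBP1 was also called lower by edgeR with at least 10 counts required in every library (adjusted p = 0.0494). In that fit 11.03% of all genes tested were lower. The 14.3% that fell in the edgeR test as reported is near the 9.06% of all genes tested, so the count is no result about the group. DESeq2 called 15.7% of all genes tested lower and 16.2% higher. WEE1, which holds CDK1 inactive before mitosis, was at 21.8, 27.8 and 25.1 CPM in NC and 12.9, 15.8 and 15.7 CPM in shPRMT6. It fell to 59.5% of NC (log2 fold change -0.75, SE 0.13, adjusted p = 0.0115). ATR was at 54.1, 62.3 and 55.5 CPM in NC and 61.6, 73.1 and 70.9 CPM in shPRMT6 and its groups overlapped (log2 fold change 0.26, 95% interval 0.034 to 0.48, adjusted p = 0.109). ATM, among the lowest of the 47 genes per length (0.587 ± 0.154 FPKM in NC), was at 13.1, 21.4 and 15.5 CPM in NC and 19.6, 20.1 and 21.8 CPM in shPRMT6 (log2 fold change 0.30, 95% interval -0.14 to 0.74, adjusted p = 0.317). Of the NC libraries, replicate 2 alone reached the shPRMT6 libraries of ATM. The effector kinases CHEK1, at 30.3 ± 6.43 CPM in NC and 27.8 ± 3.46 CPM in shPRMT6 (SD, n = 3, log2 fold change -0.13, 95% interval -0.55 to 0.30, adjusted p = 0.683), and CHEK2, at 15.04 ± 1.34 CPM in NC and 14.9 ± 0.569 CPM in shPRMT6 (SD, n = 3, log2 fold change -0.02, 95% interval -0.26 to 0.23, adjusted p = 0.931), had intervals that spanned 0. TOPBP1, which activates ATR, was at 96.6 ± 11.7 CPM in NC and 75.5 ± 5.50 CPM in shPRMT6 (SD, n = 3) with groups that did not overlap (log2 fold change -0.35, 95% interval -0.60 to -0.11, adjusted p = 0.0603). ATRIP, the partner of ATR, had a log2 fold change of -0.14, and its exons overlap TREX1, which rose (1.63), over 27.9% of their bases.

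Of the 4 genes that act on chromatin around a break, MDC1, a scaffold bound to phosphorylated H2AX, was the one that fell, at 45.03, 50.6 and 49.1 CPM in NC and 40.2, 39.1 and 39.1 CPM in shPRMT6 (log2 fold change -0.29, SE 0.073, adjusted p = 0.0371). Over all genes tested 9.06% fell, so 1 gene of 4 is no result about the group. TP53BP1, which restrains end cutting, was at 82.2, 106 and 79.4 CPM in NC and 115, 106 and 125 CPM in shPRMT6 and did not pass (log2 fold change 0.37, 95% interval 0.068 to 0.67, adjusted p = 0.0923). Its groups met at NC replicate 2 and shPRMT6 replicate 2. Its exons lie opposite TUBGCP4 over 28.7% of their bases, and TUBGCP4 fell (log2 fold change -0.56). The ubiquitin ligases RNF8 and RNF168 had log2 fold changes of 0.13 and -0.26 and did not pass, although DESeq2 called RNF168 lower.

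**Figure D4:**
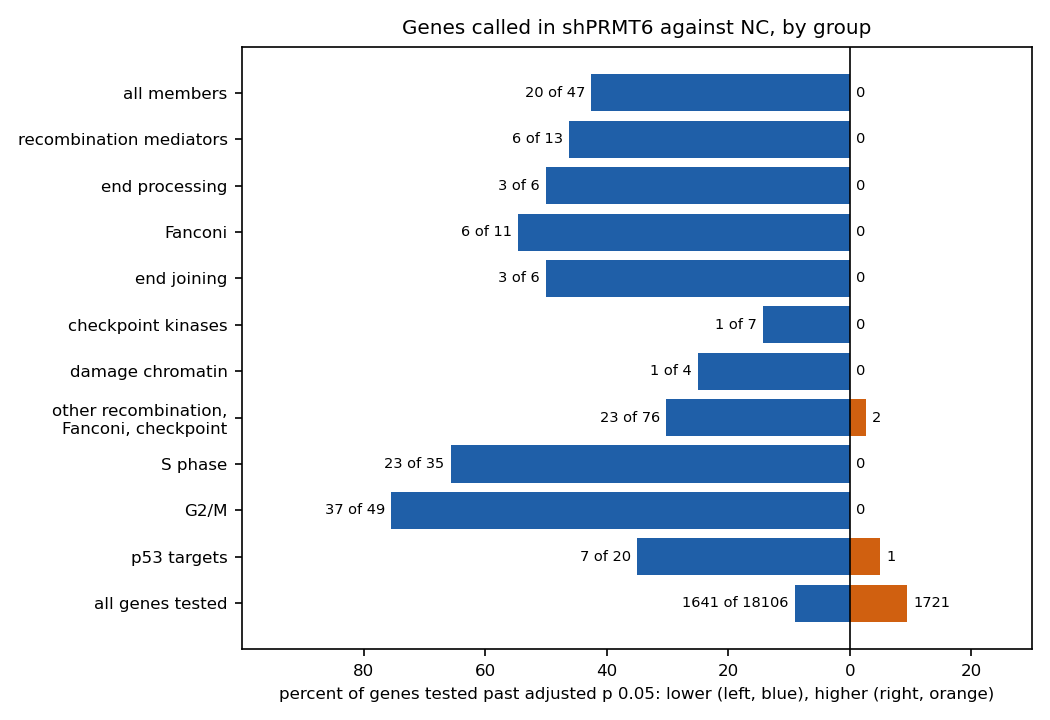
Percent of the genes tested in each group that were lower (blue, left) or higher (orange, right) in shPRMT6 at an adjusted p under 0.05, with counts beside the bars. The 47 repair genes stand at 20 lower and 0 higher, below the S phase (23 of 35) and G2/M lists (37 of 49) and above all genes tested (1641 of 18106 lower).

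Other genes of the same pathways, a list of 77 of which 76 were tested, gave 23 lower (30.3%) and 2 higher. Over all genes tested, 9.06% were lower and 9.51% higher. The median log2 fold change of the list was -0.25. H2AX, the histone variant phosphorylated at breaks, was at 49.8, 44.7 and 52.6 CPM in NC and 20.5, 18.8 and 17.7 CPM in shPRMT6 and had the smallest p of those that passed (log2 fold change -1.37, SE 0.098, adjusted p = 0.00074). The next 4, given with their log2 fold changes, were PARP1, a sensor of strand breaks (-0.76), UBE2T, the enzyme that ubiquitinates FANCD2 with FANCL (-0.82), TIMELESS, a replication fork protein (-0.63), and MAD2L2, a shieldin subunit (-1.001). The 2 that rose, named after their values were seen, were SHLD2, another shieldin subunit, at 24.4, 31.6 and 25.99 CPM in NC and 51.5, 53.3 and 59.7 CPM in shPRMT6 (log2 fold change 1.003, SE 0.12, adjusted p = 0.00310), and SFR1, at 8.15, 6.33 and 6.95 CPM in NC and 10.3, 11.5 and 9.80 CPM in shPRMT6 (log2 fold change 0.56, SE 0.14, adjusted p = 0.0352).

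Genes that mark phases of the cell cycle moved in the same libraries. Of 35 S phase genes 23 fell and 0 rose (median log2 fold change -0.53), and of 49 G2/M genes 37 fell and 0 rose (median -0.76), and 3 genes of the list of other repair genes stand in these lists. Their part in the fall of the repair genes was not tested. Of 20 p53 target genes 7 fell and 1 rose, which was TP53I3 (log2 fold change 1.47). The shares over all genes tested were 9.06% lower and 9.51% higher.

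**Figure D5:**
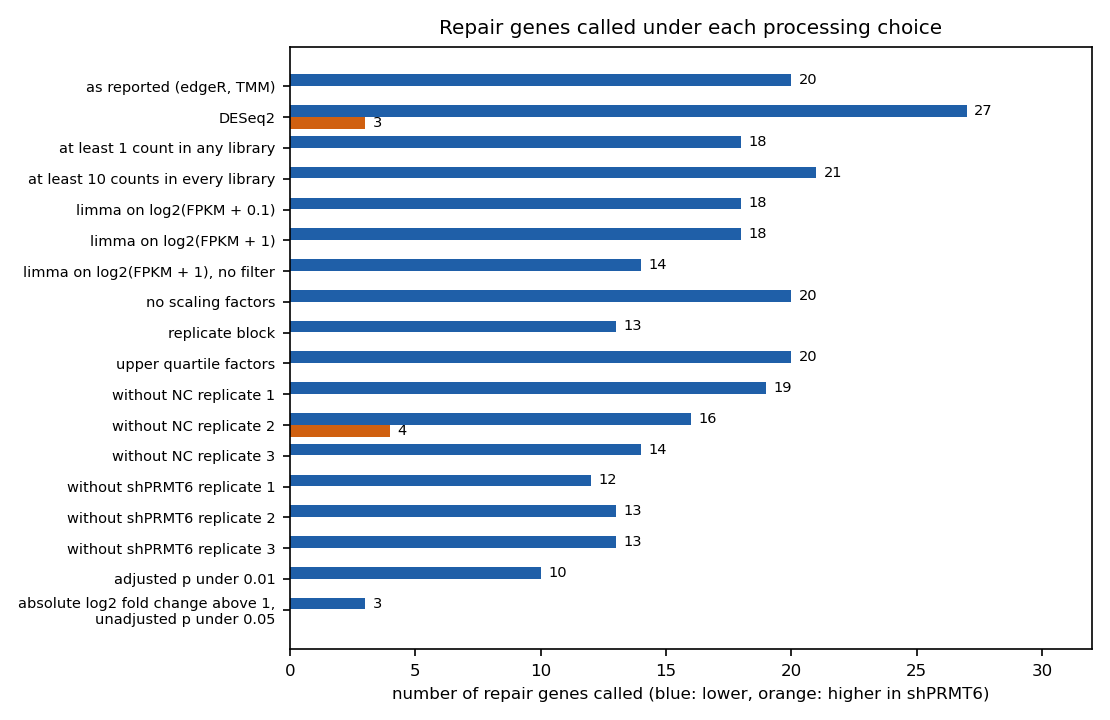
Number of the 47 repair genes called lower (blue) and higher (orange) in shPRMT6 under each processing choice. Between 3 and 27 genes were lower, and genes were called higher by DESeq2 (3) and without NC replicate 2 (4).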

How the data were processed

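The 6 RNA libraries of U87 cells (3 NC, 3 shPRMT6) were grouped by the labels. Each library has a column of whole read counts that the authors deposited without normalization. The authors also deposited FPKM, scaled to gene length and library size, where 0.0001 stands for no reads. The submitters' processing notes name HISAT2, HTSeq 0.13.5 and GRCh38, and the use of strand in counting is not given in the sources used here.

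In R 4.3.3, genes kept by the expression filter of edgeR 4.0.16 were scaled by TMM and fitted on counts by its quasi-likelihood method, with Benjamini-Hochberg adjustment over 18106 genes and a threshold of 0.05. CPM are TMM-scaled, errors are SD over 3 libraries, and the steps were tested on simulated data. Alternatives were DESeq2 1.42.0, limma 3.58.1 on log2(FPKM + 1) or log2(FPKM + 0.1), keeping genes whose FPKM averaged 1 or more, or all genes, other scalings and filters, a replicate block, and leaving out each library. Symbols were matched for 60401 of the 60612 identifiers, and exon overlaps came from GENCODE 29 on GRCh38. The members and lists were chosen with earlier results of these data known. All 47 members were named, with values per library where they passed the threshold, and otherwise group means for the best known of each role. Some overlapping or best known genes that did not pass are also given per library. Of the other repair genes, up to 5 that passed with the smallest p were named. The planned comparison of protein sequences was not made here. All replicate pairs differed beyond counting noise, with a chi-square of 48.2 to 78.4 per degree of freedom.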

Additional observations from a re-analysis of the deposited data

How the results depend on the processing

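All 20 repair genes that fell had negative fold changes in every fit that tested them, and 12 were called in each of those fits. DESeq2 called 27 repair genes lower and 3 higher, and over all genes 2842 lower (15.7%) and 2940 higher (16.2%). Beyond the 20 genes as reported, its lower calls were BRCA1, RAD51C, RAD54B, FANCF, XRCC5, TOPBP1 and RNF168. With the adjusted p under 0.01, 10 repair genes, and over all genes 647 lower and 673 higher, passed. At an absolute log2 fold change above 1 with an unadjusted p under 0.05, these were 3 repair genes lower, and 476 genes lower and 596 higher. With limma on log2(FPKM + 1) the median log2 fold change of the repair genes was -0.23, and with no filter it was also -0.23, while PRMT6 was at -0.47 and lost its call. Under the replicate block, 13 repair genes were lower, 908 genes were lower and 950 higher, and PRMT6 was at -0.88 and lost its call. Same-numbered libraries did not deviate together (correlations of -0.025, -0.017 and -0.030), and differently numbered ones gave -0.019 to 0.045. The labels do not say whether same-numbered libraries shared a batch. Leaving out 1 library gave 12 to 19 repair genes lower and 0 to 4 higher, 857 to 1522 genes lower and 898 to 1661 higher, a median over the repair genes of -0.34 to -0.26, and -1.0 to -0.73 for PRMT6. The direction turned for BRCA2 (range -0.58 to 0.10), FANCB (-0.42 to 0.059) and FANCM (-0.23 to 0.033) without NC replicate 2. It turned for MRE11 (-0.057 to 0.21) without NC replicate 3 and without shPRMT6 replicate 3 (-0.053), and for CHEK2 (-0.066 to 0.058) without NC replicate 3 and without shPRMT6 replicate 1 (0.015). None of these 5 genes passed the test as reported. The fits with fewer libraries have fewer degrees of freedom, and the cause of the other changes was not tested. With 3 libraries a group, the exact permutation test of a single gene cannot go below 0.1.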
